A study of Mus musculus with 7 samples.

Results

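Axon guidance ligands and receptors are represented here by 68 genes of the 48321 in the count tables: the netrins and their receptors, Slits and Robos, semaphorins, plexins with the coreceptor Nrp2, and ephrins with their Eph receptors. Members were taken by gene symbol, with a rule that uses no measured value, but they were chosen with earlier results of these data known. Shares of members set beside those of all tested genes are therefore description and not a test. The libraries came from hand-dissected ventrolateral ventromedial hypothalamus (VMHvl) of 7 ovariectomized female mice, collected 4 hours after a subcutaneous injection. One group of 3 mice received vehicle and the other group of 4 received 1 µg of estradiol benzoate (EB), a long-acting ester of estradiol. All mice were of mixed background with 129/Sv ancestry, descended from a line with a floxed Esr1 allele. The labels name no Cre driver, no genotype for single mice and no age. Each library came from 1 mouse, so the error given holds variation between animals together with that of dissection and library preparation.

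Guidance cues steer growing axons by attraction or repulsion, and many of the same genes stay active in the adult brain, where they act in synapse maintenance, dendrite shape and contact between cells. Netrins attract axons through Dcc and repel them through the Unc5 receptors, Slits repel through Robos, and semaphorins act through plexins, with neuropilins as coreceptors for most secreted semaphorins. Ephrins are bound to the cell surface and signal to Eph receptors on touching cells, with ephrin-A ligands held by a lipid anchor and ephrin-B ligands spanning the membrane.

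Library totals ran from 21037303 to 33302293 counts. Mitochondrially encoded, ribosomal RNA and haemoglobin genes took 10.3% to 29.5% of them, most in vehicle 1 and next in EB 1 (22.8%). All 15 listed markers of the VMH and VMHvl were measured, among them Esr1 at 223 ± 81.6 and Fezf1 at 140 ± 9.53 CPM (counts scaled by TMM to a common library total) in vehicle mice (SD, n = 3), with Nr5a1 at only 2.03 ± 1.02 CPM. Markers listed for other regions were measured too. Those of arcuate neurons summed to 715 to 891 CPM over the libraries. Those of thalamus summed to 291 to 358 CPM, and those of amygdala, striatum and cortex to 272 to 339 CPM. Vehicle 1 stood apart in mural and fibroblast markers: the 17 markers summed to 979 CPM there, against 293 and 411 in the other vehicle mice and 297 to 593 in the EB mice. EB 4 was the next highest in those markers. It was also the highest in the summed level of 2 pituitary markers, Tshb and Cga (27.6 CPM against 2.65 to 11.7 CPM). The other 6 of the 8 listed pituitary markers, Gh and Prl among them, did not pass the low-count filter and are not in that sum. In bulk tissue of this kind, fewer cells of a type and less RNA per cell cannot be told apart.

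Of the 68 members, 67 passed the low-count filter. Sema6a, a transmembrane semaphorin that binds A-type plexins, rose with EB, and Unc5c, a repulsive netrin receptor, fell. A gene is said to have risen or fallen where its adjusted p, over all tested genes, was under 0.05 in edgeR's quasi-likelihood fit, and the other 65 tested members did not reach that. Members called were thus 2 of 67 (2.99%), beside 0.952% of the 18387 tested genes, of which 0.745% were called higher and 0.207% lower. At an unadjusted p under 0.05 there were 15 members (22.4%), 6 higher and 9 lower, against 9.04% of all tested genes. Groups did not overlap in 10 members (14.9%), 2 with EB above vehicle and 8 with EB below. Over all tested genes the share was 9.1%, 940 genes above and 734 below. DESeq2 called 4 members, adding Unc5b and Efna5, where it called 2.39% of the genes it gave an adjusted p. The members were measured with somewhat smaller errors than most genes (median SE of the log2 change 0.14 against 0.19), and their median log2 change was −0.065 against −0.008 over all tested genes. Negative estimates made up 58.2% of the tested members and 51.6% of all tested genes, the share beside which the family counts below stand.

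**Figure D1:**
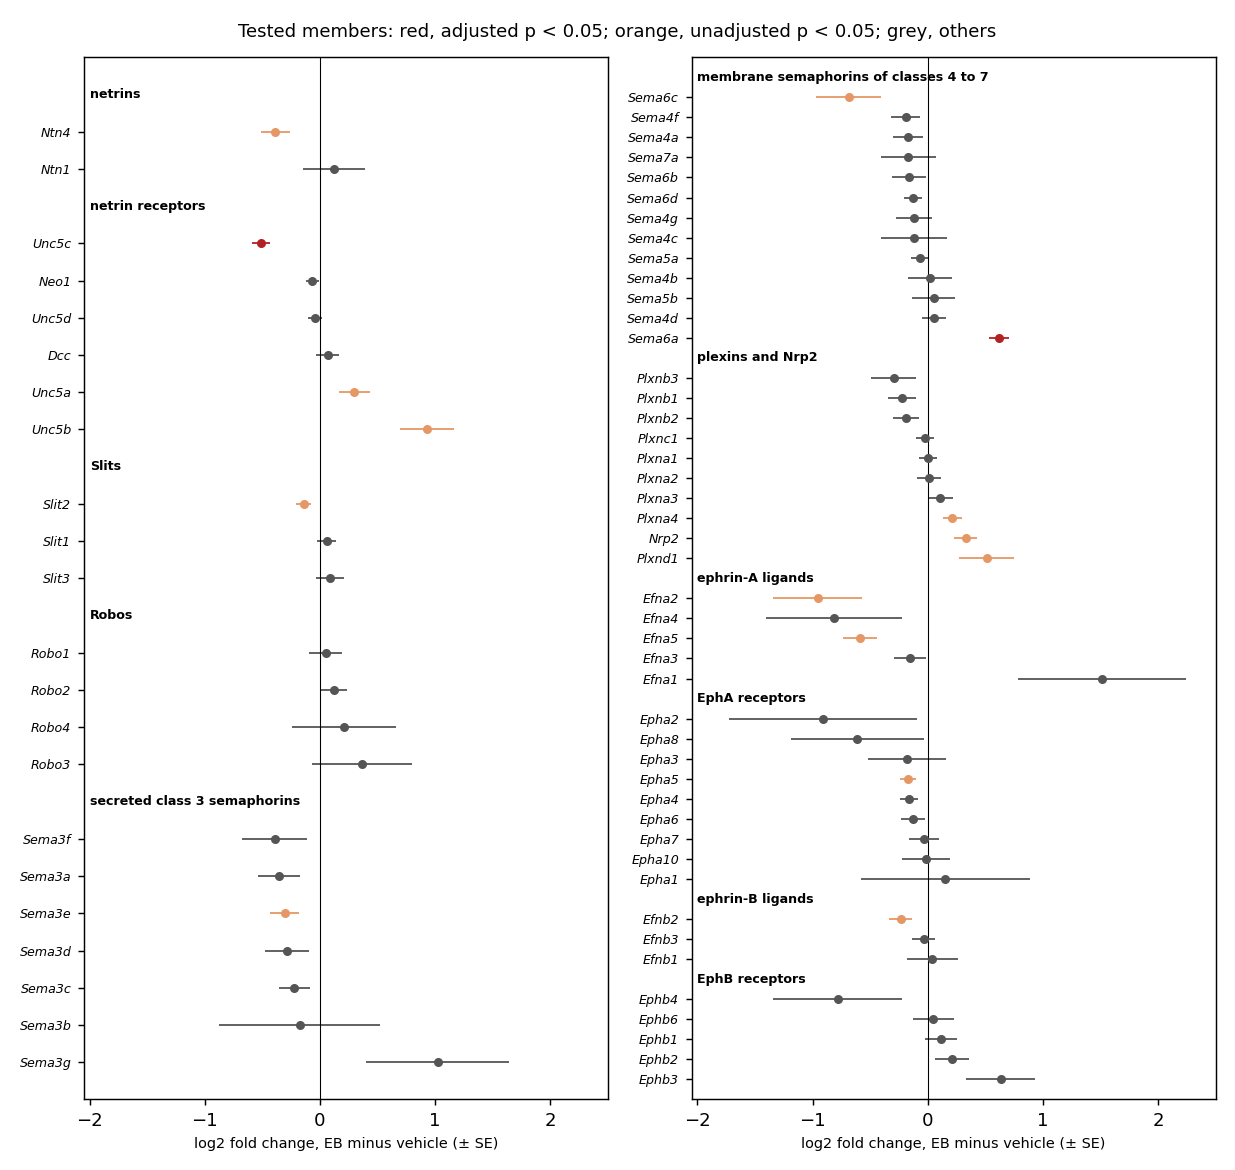
Log2 fold change (EB minus vehicle, ± SE) of the 67 tested members, grouped by family, with 3 vehicle and 4 EB mice. Red points (Sema6a and Unc5c) had an adjusted p under 0.05, orange points an unadjusted p under 0.05, and the widest bars belong to members with few counts.

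Unc5c was the netrin receptor that differed most surely between the groups. The gene (ENSMUSG00000059921.15) lies on chromosome 3, at 141465216 to 141834924 on the plus strand of GRCm38, and its protein carries the repulsive response to netrin. It stood at 177, 190 and 184 CPM in vehicle 1 to 3 and at 117, 146, 130 and 122 CPM in EB 1 to 4. All EB mice lay below all vehicle mice, and the vehicle mice were close together. The means were 184 ± 6.67 CPM (SD, n = 3) and 129 ± 12.9 CPM (SD, n = 4), a fall of 30% (log2 −0.51 ± 0.080 SE, edgeR adjusted p = 0.00571). These values rest on 2957 to 6014 counts per library. With any 1 library left out the log2 change stayed between −0.58 and −0.47 and the adjusted p between 0.00271 and 0.037. The antisense gene Gm15688 shares 118 exonic bases, 0.617% of the exonic length of Unc5c. How reads there were counted is not known, as the use of strand was not given.

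None of the other Unc5 genes was called by edgeR, and their estimates did not share its sign except for Unc5d. Unc5b, which is known best as a receptor of the vascular endothelium, was at 6.34, 5.07 and 5.94 CPM in vehicle mice and at 9.70, 10.2, 7.88 and 16.2 CPM in EB mice. Every EB mouse was above every vehicle mouse, and EB 4 was well above the rest. The log2 difference was 0.93 ± 0.23 (edgeR adjusted p = 0.111, and 0.00736 by DESeq2), and without EB 4 it was 0.69 (adjusted p = 0.184). The 15 endothelial markers summed to 185 to 259 CPM in vehicle mice and 164 to 219 CPM in EB mice, and 13 of the 15 had negative log2 changes. Their part in the Unc5b values was not tested. With the mural and fibroblast marker level as a covariate Unc5b passed (log2 1.02, adjusted p = 0.0322). That fit called 223 genes in all, against 175 in the main fit. With the oligodendrocyte marker level as a covariate Unc5b did not pass (log2 0.78, adjusted p = 0.214), nor did it by limma-voom (adjusted p = 0.207).

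Unc5a, a neuronal netrin receptor, was at 35.7, 48.7 and 39.9 CPM after vehicle and 59.7, 45.5, 42.6 and 56.3 CPM after EB. The groups overlapped through vehicle 2, and the log2 difference of 0.30 ± 0.14 had an adjusted p of 0.543. Unc5d, a further netrin receptor of the same family, differed by −0.04 ± 0.064, from 273 ± 4.72 to 265 ± 16.5 CPM. Unc5c therefore made up 18.9% to 19.3% of the summed Unc5 level per kilobase of exon in the vehicle mice and 11.8% to 16.1% in the EB mice. Unc5d held the largest part in each library, at 54.6% to 62.7%. These shares rest on exonic lengths over all annotated transcripts, 19135 bases for Unc5c and 9220 for Unc5d.

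Dcc, which mediates attraction to netrin and pairs with Unc5 proteins in long-range repulsion, was at 44.9 ± 3.98 CPM in vehicle mice and 47.1 ± 3.52 CPM in EB mice (log2 0.07 ± 0.097). Neo1, neogenin, a relative of Dcc that also binds repulsive guidance molecules, was at 361 ± 7.42 and 345 ± 15.8 CPM (log2 −0.07 ± 0.058). Both pairs of groups overlapped, and the differences were close in size to their SEs. Within the 6 netrin receptors 1 fell, 5 were not called, and 3 had an unadjusted p under 0.05.

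**Figure D2:**
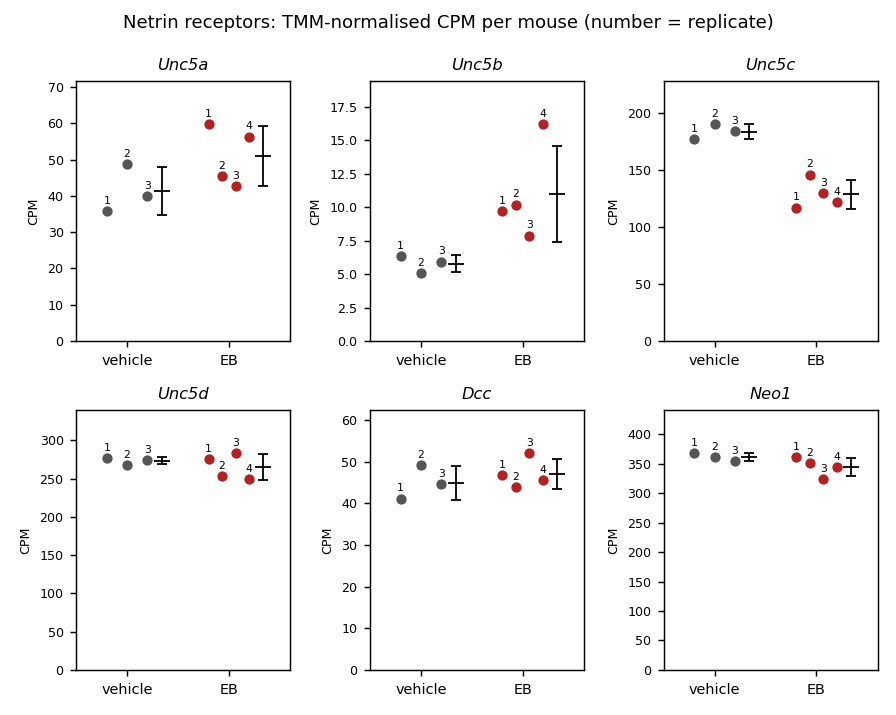
TMM-normalised CPM of the 6 netrin receptors in each mouse (points numbered by replicate) with the mean ± SD of the group beside them. In the Unc5c panel all 4 EB mice (117 to 146 CPM) lie below the 3 vehicle mice (177 to 190 CPM), while the groups overlap for Unc5a, Unc5d, Dcc and Neo1.

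Neither of the 2 tested netrins was called by edgeR or DESeq2, and 1 had an unadjusted p under 0.05. Ntn4, a laminin-related netrin of basement membranes, was at 19.3, 19.2 and 20.4 CPM after vehicle and 13.2, 16.8, 14.3 and 15.7 CPM after EB. All EB mice were below all vehicle mice, but the log2 difference of −0.39 ± 0.13 did not pass (adjusted p = 0.262). Ntn1, the classical secreted attractant, was at 4.41 ± 0.340 and 4.82 ± 1.79 CPM. Ntn5 was the member that failed the filter, with 0 to 5 counts in each library and 20 in all.

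Slit and Robo genes gave no calls by edgeR or DESeq2, with an unadjusted p under 0.05 for 1 of the 3 Slits and 0 of the 4 Robos. Slit2, a secreted repellent, was at 220, 222 and 207 CPM in vehicle mice and 205, 189, 198 and 193 CPM in EB mice. The groups did not overlap, though the nearest mice, vehicle 3 and EB 1, were almost level, and the log2 difference was small (−0.14 ± 0.063, adjusted p = 0.521). Slit1 and Slit3 had log2 changes of 0.06 ± 0.084 and 0.09 ± 0.12. Slit1, a Slit found mainly in the nervous system, was at 51.9, 47.0 and 52.8 CPM after vehicle and 51.2, 53.3, 50.9 and 55.1 CPM after EB. All 4 Robos had positive estimates, between 0.05 and 0.37, each close to its own SE or smaller. Robo1, a Slit receptor of neurons, was at 60.2, 36.8 and 55.5 CPM in vehicle mice and 50.1, 58.4, 48.4 and 53.2 CPM in EB mice, and its estimate turned negative without vehicle 2 (−0.14) or EB 2 (−0.01). Robo4, an endothelial Robo, was at 0.981 ± 0.195 and 1.13 ± 0.551 CPM.

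Sema6a rose in all 4 EB mice relative to all 3 vehicle mice. It is a membrane-bound class 6 semaphorin that signals to Plxna2 and Plxna4 and can itself act as a receptor. The gene (ENSMUSG00000019647.16) lies on chromosome 18, at 47235598 to 47368870 on the minus strand of GRCm38. Its values were 71.3, 66.3 and 68.5 CPM in vehicle 1 to 3 and 105, 92.0, 110 and 116 CPM in EB 1 to 4. The lowest EB mouse, EB 2, was still clear of the highest vehicle mouse. Means were 68.7 ± 2.5 CPM (SD, n = 3) and 106 ± 10.1 CPM (SD, n = 4), a 1.54-fold rise (log2 0.62 ± 0.087 SE, edgeR adjusted p = 0.00267) from 1556 to 3219 counts per library. With any 1 library left out the log2 change ranged from 0.57 to 0.68 and the adjusted p from 0.00206 to 0.0241.

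Oligodendrocytes also express Sema6a, and their 12 markers summed to 1041 to 1138 CPM in vehicle mice and 911 to 1102 CPM in EB mice, with 10 of the 12 log2 changes negative. With the level of those markers as a covariate Sema6a changed by 0.61 (adjusted p = 0.00931) and Unc5c by −0.52 (adjusted p = 0.0154). With the mural and fibroblast markers as a covariate the values were 0.65 (adjusted p = 0.00077) for Sema6a and −0.53 (adjusted p = 0.0032) for Unc5c. Without vehicle 1 and EB 4 together, the libraries highest in those markers, they were 0.60 (adjusted p = 0.0168) and −0.51 (adjusted p = 0.0293). Sema6a and Unc5c were called in each of these fits. The part of cell composition in their values was not tested.

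The other class 6 semaphorins were not called, and all 3 had negative estimates. Sema6c was at 2.45, 3.93 and 3.79 CPM after vehicle and 2.42, 2.13, 2.36 and 1.48 CPM after EB, a log2 difference of −0.69 ± 0.29 (adjusted p = 0.468). Vehicle 1 and EB 1 were almost level for it. Sema6d, which acts through Plxna1, had a log2 change of −0.13 ± 0.078 around 149 ± 5.99 CPM in vehicle mice, and Sema6b one of −0.16 ± 0.15. Sema6a was the 1 called gene of the 13 membrane semaphorins, of which 9 had negative and 4 positive estimates. Sema5a, a membrane semaphorin with thrombospondin repeats, was the most abundant of them at 392, 435 and 425 CPM in vehicle mice and 462, 381, 379 and 373 CPM in EB mice. EB 1 was the highest of all mice for Sema5a and the other 3 EB mice were the lowest (log2 −0.07 ± 0.078).

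**Figure D3:**
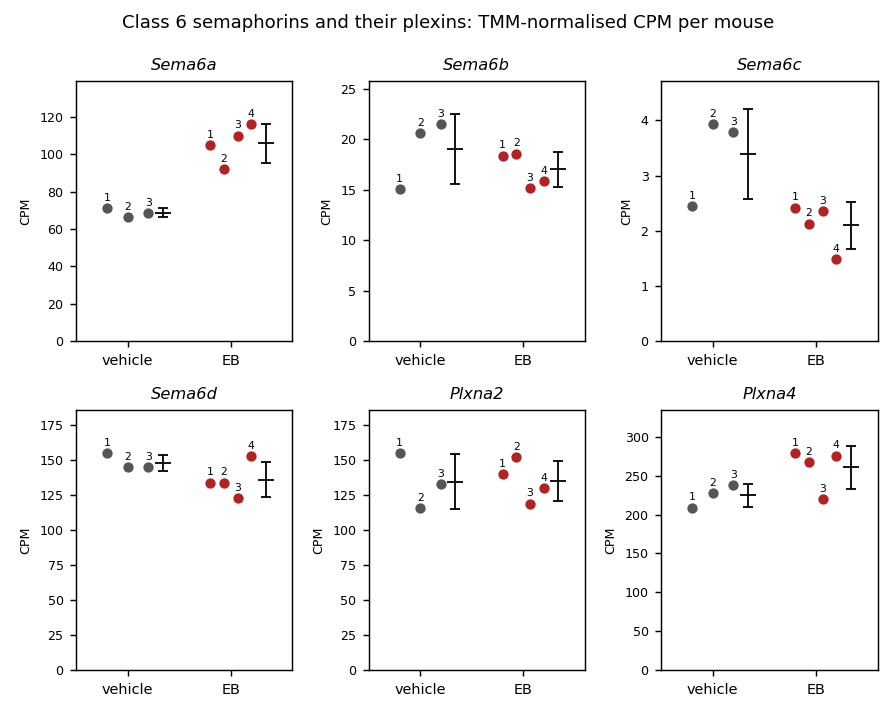
TMM-normalised CPM in each mouse (points numbered by replicate; mean ± SD beside them) of the class 6 semaphorins and of Plxna2 and Plxna4. The 4 EB mice (92.0 to 116 CPM) lie above the 3 vehicle mice (66.3 to 71.3 CPM) for Sema6a, and the groups overlap for Sema6b, Sema6d, Plxna2 and Plxna4.

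Plexins and Nrp2, the receptors for semaphorins, gave no calls by edgeR or DESeq2 among 10 genes, and 3 had an unadjusted p under 0.05, all with higher values after EB. Plxna4, a receptor of Sema6a and, with neuropilin, of Sema3a, was at 209, 228 and 238 CPM after vehicle and 279, 268, 220 and 276 CPM after EB. EB 3 fell within the vehicle range and the other EB mice above it (log2 0.22 ± 0.085, adjusted p = 0.426). Plxna2, the other receptor of Sema6a, was at 135 ± 19.8 and 135 ± 14.0 CPM (log2 0.01 ± 0.10). Nrp2, the coreceptor through which Sema3f acts, was at 122, 141 and 118 CPM in vehicle mice and 181, 137, 171 and 148 CPM in EB mice. EB 2 lay below vehicle 2 and the other EB mice above all vehicle mice (log2 0.33 ± 0.099, adjusted p = 0.215). Nrp1, a neuropilin that is not among the members, was at 43.6 ± 8.29 and 46.1 ± 2.73 CPM with the groups overlapping (log2 0.08 ± 0.12). Plxnd1, the receptor of Sema3e, was at 6.84, 5.76 and 4.84 CPM after vehicle and 8.13, 6.72, 6.45 and 12.1 CPM after EB (log2 0.51 ± 0.24, adjusted p = 0.551). EB 4 was the highest mouse for Plxnd1, as it was for Unc5b, and without it the estimate of Plxnd1 was 0.29. Plxnc1, the receptor of Sema7a, was at 217, 272 and 240 CPM in vehicle mice and 244, 227, 255 and 230 CPM in EB mice (log2 −0.02 ± 0.079). Plxna1 was even closer between the groups, at 73.8 ± 5.0 and 73.9 ± 1.6 CPM.

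Secreted class 3 semaphorins had mostly negative estimates and no call by edgeR or DESeq2, with 1 unadjusted p under 0.05. Of the 7 genes 6 were negative and their median log2 change was −0.29. Over the 19 other settings 5 or 6 were negative, 5 of them without vehicle 1, EB 1 or EB 3 and with the mural and fibroblast covariate, and the median was −0.13 without vehicle 1. Sema3e, the ligand of Plxnd1, was at 18.1, 18.5 and 21 CPM after vehicle and 17.1, 13.9, 14.9 and 16.1 CPM after EB (log2 −0.31 ± 0.13, adjusted p = 0.455). The groups of Sema3e did not overlap, with vehicle 1 and EB 1 nearest to each other. Sema3a, a collapsing factor for growth cones, and Sema3d were highest in vehicle 1, at 32.1 and 35.8 CPM against 14.5 to 23.8 and 18.8 to 30.3 CPM in the other mice. Vehicle 1 is also the library with the most mural and fibroblast marker RNA, and the part of those cells in these values was not tested. Sema3c, whose vehicle level per kilobase was the highest of the class on average but overlapped that of Sema3d (3.73 ± 0.608 against 3.30 ± 1.01), was at 27.3, 30.6 and 22 CPM in vehicle mice and 24.4, 19.1, 25.7 and 22.5 CPM in EB mice. Sema3b varied widely, from 0.379 CPM in EB 3 to 7.16 CPM in EB 4.

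Ephrin-A ligands were lower with EB in point estimate for 4 of 5 genes, without a call by edgeR and with an unadjusted p under 0.05 for 2. Efna5, ephrin-A5, which repels axons in topographic mapping, was at 76.7, 117 and 73.7 CPM after vehicle and 53.1, 56.2, 65.2 and 63.7 CPM after EB. All EB mice were below all vehicle mice, with vehicle 2 far above the others. The log2 difference was −0.59 ± 0.15 (edgeR adjusted p = 0.129, and 0.00297 by DESeq2). Without vehicle 2 it was −0.34 (adjusted p = 0.232). Efna2 was at 1.71, 4.02 and 6.25 CPM in vehicle mice and 1.54, 2.22, 2.82 and 1.61 CPM in EB mice (log2 −0.96 ± 0.38, adjusted p = 0.438). Its estimate was −0.53 without vehicle 3, the highest mouse, and −1.31 without vehicle 1. Efna1 and Efna4 were under 1 CPM on average in both groups.

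EphA receptors, which bind ephrin-A ligands, had negative estimates for 8 of 9 genes, with a median of −0.17 (51.6% of all tested genes were negative). No call was made by edgeR or DESeq2, and 1 had an unadjusted p under 0.05. The count of negative estimates ranged from 6 to 9 over the 19 other settings, and the median was −0.084 without EB 1, where 8 of the genes were tested. Epha5, a neuronal receptor of ephrin-A5, was at 221, 227 and 201 CPM after vehicle and 204, 191, 193 and 180 CPM after EB, so that EB 1 lay just above vehicle 3 (log2 −0.17 ± 0.069, adjusted p = 0.433). Epha4, which binds ephrins of both classes, was at 143, 156 and 151 CPM in vehicle mice and 136, 148, 121 and 129 CPM in EB mice (log2 −0.17 ± 0.078). Epha7 was nearly level, at 25.6 ± 1.72 and 25.0 ± 3.80 CPM.

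Ephrin-B ligands and EphB receptors were not called by edgeR or DESeq2 either, with 1 of 3 and 0 of 5 at an unadjusted p under 0.05. Efnb2, an ephrin of arteries and of neurons, was at 111, 132 and 108 CPM after vehicle and 110, 98.3, 85.2 and 104 CPM after EB, with EB 1 inside the vehicle range (log2 −0.24 ± 0.097, adjusted p = 0.452, and −0.14 without vehicle 2). Efnb3, a neuronal ephrin, was at 52.5, 65.8 and 61.2 CPM in vehicle mice and 67.1, 54.8, 56.4 and 55.1 CPM in EB mice. EB 1 was the highest mouse for Efnb3 and vehicle 1 the lowest. Ephb1, which guides retinal axons at the midline, was at 35.8, 49.3 and 30.4 CPM after vehicle and 42.1, 43.8, 38.6 and 42.5 CPM after EB (log2 0.11 ± 0.14). Ephb3 differed by 0.63 ± 0.30 on the log2 scale, with EB 4 at 7.45 CPM and the other EB mice at 3.48 to 4.08 CPM. Ephb4, the venous partner of Efnb2, was at 3.93 CPM in vehicle 1 and 2.47 CPM in EB 4 and at 0.686 to 1.23 CPM in the other mice. Those are also the libraries with the most mural and fibroblast marker RNA, whose part in these values was not tested.

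Levels between genes were compared as CPM per kilobase of exon in the 3 vehicle mice. Neo1 was the highest member at 41.4 ± 0.852 (SD, n = 3), followed by Unc5d at 29.6 ± 0.512 and Plxnc1 at 29.1 ± 3.31, which did not differ beyond their spread. Sema5a at 22.3 ± 1.2 and Efna5 at 22.1 ± 6.05 came next and also overlapped. The highest members of the other families were Efnb3 (18.8 ± 2.13), Epha4 (18.6 ± 0.818), Slit1 (8.54 ± 0.524), Ephb1 (5.50 ± 1.39), Ntn4 (5.25 ± 0.185), Sema3c (3.73 ± 0.608) and Robo1 (3.08 ± 0.748). Slit2, at 8.51 ± 0.330, was level with Slit1 on this scale. The exonic length of Slit2 over all annotated transcripts is 25433 bases, against 5921 for Slit1, which lowers its value if shorter transcripts dominate. The same holds for Robo1, at 16511 bases. Unc5c stood at 9.60 ± 0.349 and Sema6a at 7.83 ± 0.285, the fourth of the 6 netrin receptors (within the spread of Unc5a, at 9.94 ± 1.59) and the fourth of the 13 membrane semaphorins, and the exonic length of Unc5c (19135 bases over all annotated transcripts) lowers its value if shorter transcripts dominate. Summed over a family, the netrin receptors reached 94.9 ± 1.52 and the plexins with Nrp2 88.7 ± 4.54, against 5.98 ± 0.221 for the netrins and 6.10 ± 1.03 for the Robos. With EB the same sums were 92.6 ± 2.95, 92.6 ± 2.94, 4.84 ± 0.421 and 6.50 ± 0.658.

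**Figure D4:**
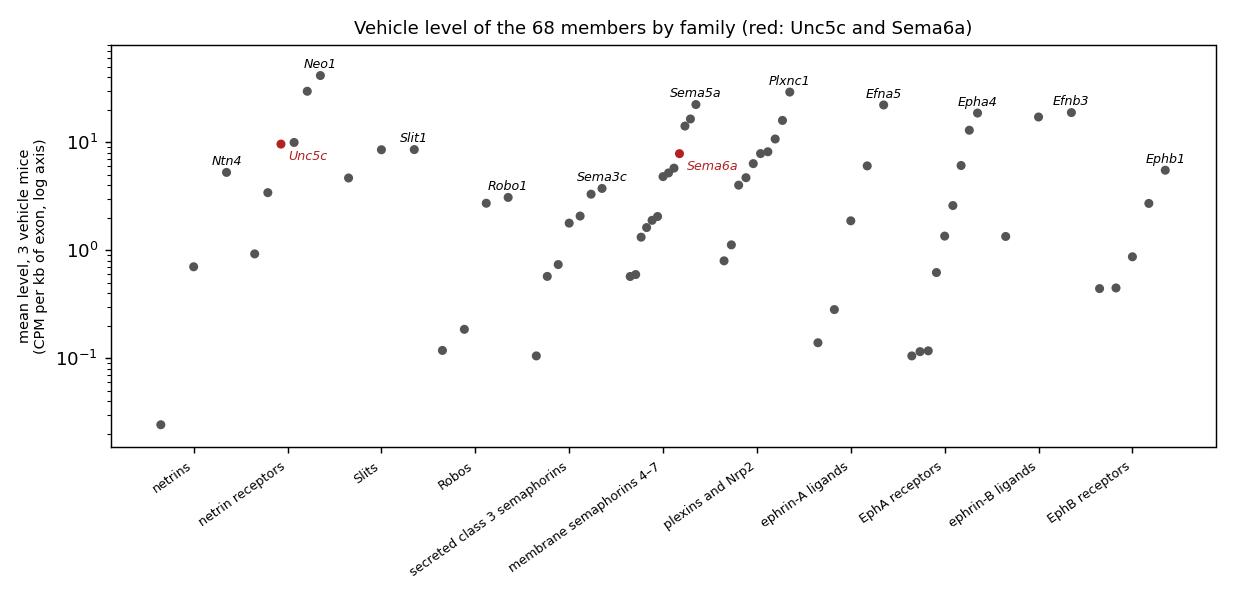
Mean level of each of the 68 members in the 3 vehicle mice, as CPM per kilobase of exon on a log axis, by family, with the highest member of each family named. Unc5c (9.60) and Sema6a (7.83), in red, lie well above the lowest members of their families but below Neo1 (41.4) and Sema5a (22.3).

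The SEs of the estimates were mostly larger in members of low abundance. Of the 68 members 13 had a vehicle mean of at least 100 CPM and 43 of at least 10 CPM, and 7 were under 1 CPM in both groups (Efna1, Efna4, Epha1, Epha2, Epha8, Ntn5 and Sema3g). Members of at least 10 CPM had a median coefficient of variation of 9.9% between vehicle mice and SEs of 0.058 to 0.20 on the log2 scale. Below 10 CPM the tested members had SEs of 0.19 to 0.82, and the estimates of Efna1 (1.51 ± 0.73), Sema3g (1.02 ± 0.62) and Epha2 (−0.91 ± 0.82) were not called. Level was not all that differed between them: Sema3b, at 3.51 CPM in vehicle mice, had an SE of 0.70 and Sema4c, at 2.73 CPM, one of 0.29. The parts of low counts and of spread between mice in these SEs were not tested. Vehicle 2 was the highest library for 18 of the 67 tested members (26.9%, against 21% of all tested genes) and EB 4 for 15 (22.4%, against 15.7%).

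**Figure D5:**
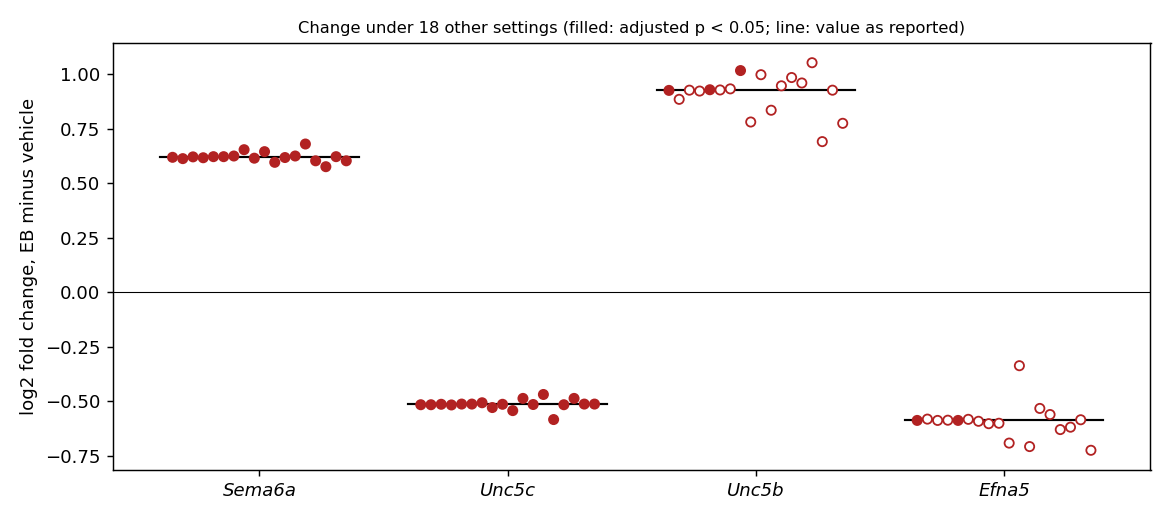
Log2 fold change (EB minus vehicle) of Sema6a, Unc5c, Unc5b and Efna5 under other tests, scalings, filters, covariates and with libraries left out, 1 point a setting, filled where the adjusted p was under 0.05. The threshold of 0.1, which repeats the main fit, is not drawn. All points of Sema6a (0.57 to 0.68) and Unc5c (−0.58 to −0.47) are filled, whereas those of Unc5b and Efna5 are mostly open and spread more widely.

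Guidance genes outside these families were read from a list of 90 measured genes, 34 other cues and receptors and 56 signalling proteins. Of the 89 tested, 3 rose and 1 fell (4.49%, against the 0.952% given above for all tested genes). The list was chosen with earlier results of these data known. Its genes, like the members, were measured with smaller errors than most (median SE of the log2 change 0.11 against 0.19). Mical2, a flavin monooxygenase that oxidises actin and belongs to a family of plexin effectors, was at 59.0, 48.4 and 65.9 CPM in vehicle mice and 109, 103, 82.5 and 107 CPM in EB mice. No EB mouse fell within the vehicle range, and the rise was 0.80 ± 0.12 on the log2 scale (adjusted p = 0.00448). Abl2, a cytoskeletal tyrosine kinase related to the guidance kinase Abl1, was at 54.9, 60.6 and 54.4 CPM after vehicle and 92.6, 76.6, 75.9 and 87.7 CPM after EB (log2 0.55 ± 0.093, adjusted p = 0.00848). Again the groups were separate, but the adjusted p of Abl2 was 0.0731 with vehicle 3 left out and 0.0755 with vehicle 1 and EB 4 both left out.

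Srgap1, an intracellular protein that binds Robo receptors, rose from 46.8 ± 4.16 to 64.9 ± 4.74 CPM (log2 0.47 ± 0.094, adjusted p = 0.0283). Flrt2, a membrane protein that binds Unc5 receptors and repels cells that carry them, fell from 180 ± 15.6 to 132 ± 15.3 CPM (log2 −0.45 ± 0.093, adjusted p = 0.0369). It was at 172, 198 and 170 CPM in vehicle mice and 146, 143, 126 and 113 CPM in EB mice, so every EB mouse lay below every vehicle mouse. The same held for Unc5c but not for Unc5d, the most abundant Unc5 gene per kilobase, whose groups overlapped (log2 −0.04 ± 0.064). The calls of Srgap1 and Flrt2 were less stable than those of Sema6a and Unc5c. With the oligodendrocyte marker covariate Srgap1 and Flrt2 were not called, and limma-voom did not call Flrt2 (adjusted p = 0.0517). Srgap1 was not called without vehicle 1, vehicle 3, EB 1, EB 2 or EB 4 (adjusted p = 0.123, 0.0809, 0.123, 0.0743 and 0.0783), and Flrt2 not without any 1 of vehicle 1 to 3 or EB 2 to 4 (0.0531, 0.138, 0.095, 0.0503, 0.102 and 0.0796).

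Further genes of the list with an unadjusted p under 0.01 were not called by edgeR. Shh, a morphogen that also guides axons, was at 3.28 ± 1.28 CPM after vehicle and 6.01 ± 0.993 CPM after EB, and Limk1, a kinase of cofilin, at 15.0 ± 3.48 and 21.2 ± 1.93 CPM. Rgmb, a ligand of neogenin, was at 19.9 ± 2.94 and 14.7 ± 0.855 CPM, and Dpysl3, a collapsin response mediator protein, at 119 ± 19.2 and 94.8 ± 6.35 CPM. None of the 4 pairs of groups overlapped, and their adjusted p-values were 0.216, 0.230, 0.231 and 0.213. In edgeR fits with another setting, Limk1 passed without vehicle 2 (adjusted p = 0.0345), and Shh (0.028) and Dpysl3 (0.0337) passed without the low-count filter. Without vehicle 2 the log2 difference of Shh went from 0.91 to 0.59 and that of Dpysl3 from −0.33 to −0.19.

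Promoter sequence was examined because estrogen receptors bind DNA at estrogen response elements or act through other promoter-bound factors. RefSeq windows of GRCm38.p6, from 250 bases before to 50 bases after a transcription start, were found for 58 of the 68 members, 74 windows in all. The palindromic estrogen response element GGTCANNNTGACC, searched on both strands, was in 0 of the 74 windows and in 0.07% of the 32851 windows of all genes. Its half-site AGGTCA was in 10 (13.5%, against 16.3%), and the AP-1 site TGANTCA with C or G at N in 2 (2.7%, against 5.2%). The GC box GGGCGG was in 52 (70.3%, against 35.7%). It was added to the search after the sequences had been seen. The window of Unc5c held none of the 4 motifs, and that of Ntn4 held 1 half-site and 4 GC boxes. Both windows begin inside the annotated gene, at 141465314 for Unc5c (gene start 141465216) and at 93640799 for Ntn4 (gene start 93640681). The sequence before those gene starts was not searched. Sema6a was among the members with no window matched and was not searched.

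Upstream stretches are shown for Unc5b and Efna5, which DESeq2 called in opposite directions, and which end just before the annotated start of transcription with no annotated exon inside. The stretch of Unc5b is chr10:60831582-60831831 and that of Efna5 chr17:62881318-62881567, both on the minus strand of GRCm38.p6 and written 5′ to 3′. Capitals mark GC boxes on either strand, 2 in Unc5b and 4 in Efna5.
Unc5b: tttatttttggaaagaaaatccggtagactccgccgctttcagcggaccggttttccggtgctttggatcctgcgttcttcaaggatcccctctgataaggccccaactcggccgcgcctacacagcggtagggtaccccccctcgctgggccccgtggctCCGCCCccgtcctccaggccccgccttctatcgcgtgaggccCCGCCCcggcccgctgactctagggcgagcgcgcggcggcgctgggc
Efna5: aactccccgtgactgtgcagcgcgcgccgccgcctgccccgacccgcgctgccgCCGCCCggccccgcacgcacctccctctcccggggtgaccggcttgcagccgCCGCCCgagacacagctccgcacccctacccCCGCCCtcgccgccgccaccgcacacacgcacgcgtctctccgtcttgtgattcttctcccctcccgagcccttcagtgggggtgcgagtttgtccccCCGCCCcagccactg
The whole windows were 69.7% G or C for Unc5b and 73.3% for Efna5, and neither stretch holds an estrogen response element, a half-site or an AP-1 site. A match or its absence describes these letters in this window and no more.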

How the data were processed

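RNA from 7 mice (15 ng per library, per the labels' protocols) was sequenced. The authors deposited raw counts per gene, whole numbers for 48321 genes in each library. The submitters' processing notes name HISAT2, HTSeq, DESeq2 and the build mm10. Not given in the sources used here were the versions, the annotation, the use of strand and the treatment of multiply mapped reads. Replicate pairs differed by 17 to 166 in chi-square per degree of freedom, so no library was a copy of another. Replicate numbers only name mice, in accession order.

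The low-count filter (filterByExpr, minimum count 10) passed 18387 of the 31222 genes with any count. After TMM scaling, edgeR 4.0.16 in R 4.3.3 gave the tests (glmQLFTest after estimateDisp and a robust glmQLFit, quasi-dispersions bias-adjusted), with no covariate and Benjamini-Hochberg adjustment over all tested genes. SEs are the log2 change over the square root of F. Exonic lengths and positions come from GENCODE vM21 on GRCm38, the assembly also called mm10, where all 68 members were matched by symbol.

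Members and lists were chosen with earlier results of these data known. Named were members called or with an unadjusted p under 0.05 (at most 20), Unc5c and Sema6a, the member of highest vehicle level per length in each family, and other guidance genes called or with an unadjusted p under 0.01. Others were chosen after their values were seen. Protein sequences were planned and not used here. Alternatives were DESeq2 1.42.0, limma-voom (limma 3.58.1), 2 scalings, 2 filters, removal of 235 mitochondrial, rRNA and haemoglobin genes, 2 marker covariates, a threshold of 0.1 and each library left out. The older quasi-dispersion estimate and the removal of vehicle 1 and EB 4 together were added after seeing the data. The scripts were tested on simulated data.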

Additional observations from a re-analysis of the deposited data

Results flagged for a closer look

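A sample far from the others of its group was looked for among the 4 EB mice in each of the 32 genes named by the rule, where chance alone gives about 1 such case in 20 groups. In EB 1 Sema5a stood at 462 CPM, while the other EB mice lay between 373 and 381 CPM. In the same mouse Efnb3 stood at 67.1 CPM against 54.8 to 56.4 CPM in the others. EB 1 was also the EB library with the largest share of mitochondrial, rRNA and haemoglobin counts (22.8%), and its part in these values was not tested.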

How the results depend on the processing

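Sema6a and Unc5c kept direction and call under all 19 alternatives, with log2 changes of 0.57 to 0.68 and −0.58 to −0.47. They were the 2 members called in each fit with 1 library left out (2 to 2). The threshold of 0.1 repeats the main fit, so it could not turn a sign or remove a call. It is counted among the 19 alternatives, also for the families and in the 456 comparisons below. DESeq2 called 4 members and the fit without a low-count filter 5, which added Unc5b and Efna5 and, in the latter, Nrp2 (adjusted p = 0.0206), and the fit with the mural and fibroblast covariate 3, which added Unc5b. Over all genes 175 were called, 356 by DESeq2 (232 higher, 124 lower), 375 without a filter and 102 to 152 with 1 library left out, the fewest without vehicle 3 (102) and EB 1 (107). Of the other guidance genes 4 were called, 6 without a filter (adding Dpysl3 and Shh), 5 with the mural and fibroblast covariate (adding Wnt5a), 2 with the oligodendrocyte covariate, 1 without vehicle 1 and EB 4 together, and 1 to 4 with 1 library left out, with 1 left without vehicle 3 and 2 without EB 2 or EB 4. Of 456 comparisons of the 24 named members with an alternative, 445 kept direction and call, 6 gained a call and 5 turned sign, all for uncalled members: with 1 library left out Efnb3 ranged from −0.126 to 0.038 and Plxnc1 from −0.104 to 0.065 (both highest without vehicle 2), Robo1 from −0.14 (without vehicle 2, and −0.01 without EB 2) to 0.191, and Ephb1 from −0.031 (without vehicle 3) to 0.335. The cause of these differences was not tested. No paired analysis was possible because no label numbers the mice across both groups.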
